A study of Mus musculus with 12 samples.

Results

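Genes that gave no RNA-seq read at all in one of 2 murine erythroblast clones, and reads in every library of the other, numbered 84 of the 56748 genes counted. A gene was taken when its raw count was 0 in all 3 libraries of one genotype and at least 5 in each of the 3 libraries of the other, and 5 further genes that met these limits (Smarca2, Ctsz, Slfn3, Macrod1 and Epx) were left aside. Of the 84, 63 were silent in Sf3b1 +/+ cells and 21 were silent in Sf3b1 K700E/+ cells. The counts of these libraries chose the genes, so their own levels are given as a description without a test. Without leaving any gene aside, 0.516% of the 12979 genes with at least 5 reads in every Sf3b1 K700E/+ library were silent in Sf3b1 +/+ cells, and 0.169% of the 12983 genes with at least 5 reads in every Sf3b1 +/+ library were silent in Sf3b1 K700E/+ cells.

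The cells were G1E-ER4, male murine proerythroblasts without a working Gata1 gene of their own. They hold, under puromycin selection, a GATA1-ER fusion protein that estradiol activates to drive maturation. One clone carries the K700E mutation of the splicing factor SF3B1 on 1 allele (Sf3b1 K700E/+) and the other carries none (Sf3b1 +/+). Both were kept in Epo and SCF and came from CRISPR-Cas9 editing, removal of a hygromycin cassette by flippase and sorting of single cells, and both had 24 h of estradiol at 10-7 M. Each genotype is 1 clone, so effects of the mutation and differences between clones cannot be told apart. The labels do not say that libraries came from separate cultures, and p-values may thus reflect technical spread alone.

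A gene without a single read at this depth is one that its cell does not transcribe, transcribes rarely or transcribes into RNA that is lost, or one whose reads were assigned to a copy or to no gene. In mammalian cells, long-term silence of this kind is maintained by DNA methylation at CpG sites of the promoter and by repressive histone marks, and it is copied through cell division, so that a state present in the founder cell of a clone can be shared by all its descendants.  Clones of 1 line are known to differ in such states, and erythroid cells switch off many genes as they mature. None of these states was measured here.

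The depth of the Sf3b1 K700E/+ libraries was 44045337 to 50077827 counts and that of the Sf3b1 +/+ libraries 38785471 to 40702174, so the genotype with fewer silent genes was the more deeply sequenced. Sf3b1 itself did not pass the test (29400 to 31027 reads in Sf3b1 +/+ and 31727 to 37867 in Sf3b1 K700E/+, log2 fold change 0.01 ± 0.05 (SE), adjusted p = 0.858), and its count cannot show a point mutation. Gata1 was higher in Sf3b1 K700E/+ cells (13486 to 16143 reads against 5898 to 7190, log2 fold change 1.0 ± 0.07, adjusted p = 9.43e-06). These reads may come in part or whole from the fusion gene, which the count cannot tell from the cells' own gene. Of 15 tested erythroid markers 1 was higher and 2 were lower, and their summed level was 10100, 14000 and 16200 CPM in replicates 1, 2 and 3 of Sf3b1 K700E/+ and 12100, 16200 and 16700 CPM in those of Sf3b1 +/+, overlapping between genotypes but lower in Sf3b1 K700E/+ within each of the 3 numbered pairs. Of 8 tested granulocyte and macrophage markers all 8 were lower in Sf3b1 K700E/+ cells, beside 23.1% of all tested genes. Lyz2, Mpeg1, Cybb, Adgre1 and Fcgr3 passed the filter on low counts only through the Sf3b1 +/+ libraries. Their direction was fixed by being tested, and only Cd68, Cebpe and Spi1 could have gone either way. These markers are taken up again below.

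Promoters of 6 silent genes are shown, as they differ in the CpG sites at which methylation can silence a gene. Each line gives the 250 bases before the start of the gene from RefSeq on GRCm38.p6, 5′ to 3′ on the strand of the gene, with CpG sites in capitals. The first 3 are among the 4 highest genes silent in Sf3b1 +/+ cells, which are described first. The fourth stands for a gene array on chromosome 14, and the last pair are the 2 highest genes silent in Sf3b1 K700E/+ cells.
Tarbp1 (chr8:126475066-126475315, - strand): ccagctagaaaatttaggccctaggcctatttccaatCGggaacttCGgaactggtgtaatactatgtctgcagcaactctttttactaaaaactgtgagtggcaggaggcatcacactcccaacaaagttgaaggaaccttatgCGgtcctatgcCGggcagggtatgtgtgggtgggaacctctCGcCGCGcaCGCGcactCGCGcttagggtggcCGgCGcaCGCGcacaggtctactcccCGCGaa
Cc2d1a (chr8:84147918-84148167, - strand): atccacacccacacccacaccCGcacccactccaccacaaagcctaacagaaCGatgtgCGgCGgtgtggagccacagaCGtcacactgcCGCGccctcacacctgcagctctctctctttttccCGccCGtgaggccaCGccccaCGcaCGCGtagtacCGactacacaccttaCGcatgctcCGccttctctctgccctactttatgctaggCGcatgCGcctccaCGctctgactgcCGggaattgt
Mccc2 (chr13:100015640-100015889, - strand): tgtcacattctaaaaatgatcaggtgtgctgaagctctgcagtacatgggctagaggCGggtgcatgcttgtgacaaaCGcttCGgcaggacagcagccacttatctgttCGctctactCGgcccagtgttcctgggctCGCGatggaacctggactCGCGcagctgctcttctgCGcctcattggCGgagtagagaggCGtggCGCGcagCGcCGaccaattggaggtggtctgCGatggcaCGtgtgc
Gm5930 (chr14:44384542-44384791, - strand): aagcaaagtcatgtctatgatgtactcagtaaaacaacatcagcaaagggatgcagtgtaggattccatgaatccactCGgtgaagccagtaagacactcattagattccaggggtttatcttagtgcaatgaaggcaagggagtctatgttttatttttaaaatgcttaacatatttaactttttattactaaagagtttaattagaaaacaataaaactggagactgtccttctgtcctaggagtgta
Saysd1 (chr14:20083173-20083422, - strand): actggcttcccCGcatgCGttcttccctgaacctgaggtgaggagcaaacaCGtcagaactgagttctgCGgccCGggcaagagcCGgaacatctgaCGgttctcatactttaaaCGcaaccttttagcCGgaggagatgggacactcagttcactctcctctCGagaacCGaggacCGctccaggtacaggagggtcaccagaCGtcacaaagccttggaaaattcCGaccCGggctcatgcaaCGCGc
C330024D21Rik (chr5:67463648-67463897, + strand): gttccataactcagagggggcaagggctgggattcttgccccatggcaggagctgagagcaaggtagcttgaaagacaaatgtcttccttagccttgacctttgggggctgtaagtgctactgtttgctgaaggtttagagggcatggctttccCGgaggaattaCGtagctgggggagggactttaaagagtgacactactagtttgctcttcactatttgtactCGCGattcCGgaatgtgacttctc
The windows of Tarbp1, Cc2d1a, Mccc2 and Saysd1 held 17, 20, 18 and 17 CpG sites. Those of Gm5930 and C330024D21Rik held 1 and 5.

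Among the genes silent in Sf3b1 +/+ cells, the 3 with the most reads act on tRNA, in ubiquitin ligation and at membranes. Tarbp1, a methyltransferase that modifies the ribose of tRNA, had 1112, 812 and 747 reads in the Sf3b1 K700E/+ libraries and 0 in each Sf3b1 +/+ library. Its level was 19.2 ± 2.57 CPM (counts scaled to library size, SD, n = 3), at least 778-fold above the floor of 3 reads over the silent libraries. Trim68, a ubiquitin ligase, had 639, 548 and 475 reads, at least 486-fold above it. Cc2d1a, a C2 domain protein that binds the membrane-cutting ESCRT-III complex, had 516, 453 and 457 reads (10.4 ± 0.304 CPM). These genes were thus read at a steady level in every library of the clone that expressed them, with coefficients of variation of 13.3%, 6.96% and 2.94%.

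Enzymes of metabolism were also among them. Mccc2, the subunit of methylcrotonyl-CoA carboxylase that carries out the carboxyl transfer in leucine breakdown, had 397, 329 and 285 reads (7.3 ± 0.629 CPM). Gpd1l, a glycerol-3-phosphate dehydrogenase of the cytosol, had 360, 253 and 264 reads (6.33 ± 0.786 CPM). Fhit, a hydrolase of diadenosine polyphosphates encoded at a fragile site, had 148, 109 and 116 reads (2.7 ± 0.263 CPM). All values of these enzymes lay far above the floor, in contrast to Acsf2, an acyl-CoA synthetase, with 16, 8 and 7 reads, and Asah2, a ceramidase, with 8, 6 and 7.

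Several of the remaining high genes have roles in the cytoskeleton or at membranes. Arhgap5 had 307, 283 and 256 reads (6.13 ± 0.158 CPM). Mast4, a microtubule-associated kinase, had 241, 214 and 222 reads (4.92 ± 0.234 CPM). The β-tubulin gene Tubb6 had 167, 151 and 93 reads (2.95 ± 0.677 CPM). Epb41l2, a relative of the red cell membrane skeleton protein 4.1, had 112, 92 and 70 reads, and Eml6, a microtubule-binding protein, had 96, 74 and 68. Ankrd50, an ankyrin repeat protein of endosomal recycling, was nearly constant at 225, 220 and 223 reads. The zinc finger gene Zfp975 had 130, 113 and 114 reads.

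Fgf3, a secreted growth factor normally used in embryos, behaved differently from the rest. It had 354 reads in replicate 1 of Sf3b1 K700E/+ cells, 104 in replicate 2 and 46 in replicate 3, a coefficient of variation of 90.7% against a median of 16.2% over the 63 genes. The value of replicate 1 was 4.17 times the mean of the others, and 0.516% of all genes with at least 5 reads in every Sf3b1 K700E/+ library exceeded a ratio of 2.

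**Figure D1:**
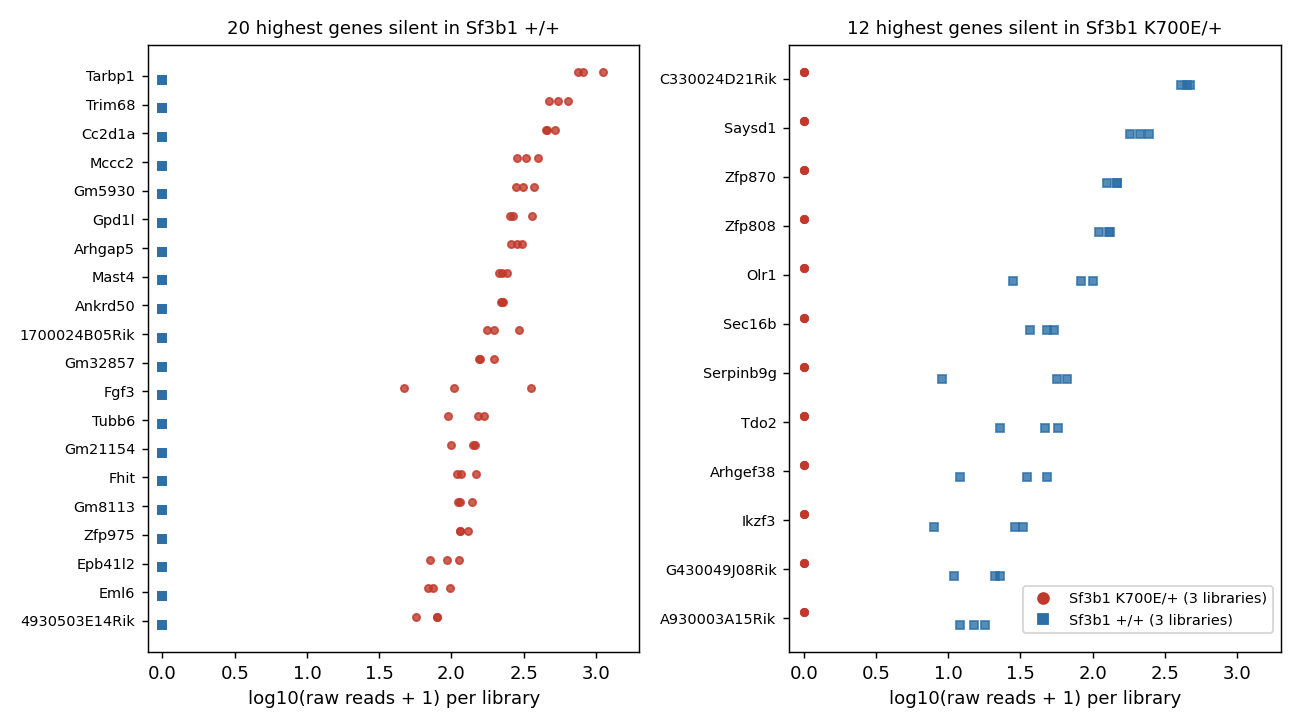
Raw reads per library, on a log10(reads + 1) axis, of the 20 highest genes silent in Sf3b1 +/+ cells (left) and the 12 highest silent in Sf3b1 K700E/+ cells (right), with red circles for the 3 Sf3b1 K700E/+ libraries and blue squares for the 3 Sf3b1 +/+ libraries. The silent genotype lies at 0 by the rule. Fgf3 spreads from 46 to 354 reads, and several genes on the right, such as Serpinb9g with 8, 56 and 65 reads, have 1 low library.

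The other genes silent in Sf3b1 +/+ cells were read less. Over all 63 the mean level ran from 0.152 to 19.2 CPM with a median of 0.838 CPM, against a median of 22.7 CPM over all genes with at least 5 reads in every Sf3b1 K700E/+ library. Per kilobase of exon the medians were 0.167 and 5.61 CPM (61 and 12664 genes with a length), so the silent genes were low genes also after length. In 14 genes every Sf3b1 K700E/+ library held at least 100 reads, and in 43 at least 10. Transcription factors and chromatin-linked genes were among the low ones, with 32, 28 and 29 reads for the LIM homeobox gene Lhx2 and 12, 14 and 10 for Nr3c2, the mineralocorticoid receptor. So were genes of signalling and transport, such as the kinase Tnik (43, 27 and 17 reads), the granule GTPase Rab27b (77, 55 and 46) and the copper transporter relative Slc31a2 (22, 18 and 15). The DNA glycosylase Neil2, which starts base excision repair, had 52, 29 and 33 reads.

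The genes just inside the limit were Akap6 (15, 11 and 5 reads), Dach2 (12, 8 and 5), Abca4 (11, 8 and 5) and Gm49146 (5, 10 and 6), and in the other direction Gm29018 (5, 18 and 19), Gm16556 (5, 16 and 5) and Gm27038 (5, 8 and 9). Just outside it, with a lowest count of 4, were Vsir, Gm6490 and Gm47424 in the first direction and 9 genes in the other, Itgam (5, 7 and 4 reads) and Cd33 (4, 4 and 12) among them. A further 24 genes had 1 read over the Sf3b1 +/+ libraries and at least 5 in each of the others, and 28 had 1 read over the Sf3b1 K700E/+ libraries. In 6 of the 24 every Sf3b1 K700E/+ library held at least 200 reads. These were Camk1d (1011, 706 and 640), Dock2 (630, 619 and 577), Dnajc27 (606, 444 and 364), Tspan6 (458, 317 and 276), Acsf3 (348, 318 and 304) and Plekhb2 (267, 256 and 251), so a single read kept genes as high as the top of the list out of it.

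The 21 genes silent in Sf3b1 K700E/+ cells fell into steady and unsteady ones. The noncoding RNA C330024D21Rik had 406, 450 and 470 reads in the Sf3b1 +/+ libraries (10.9 ± 0.666 CPM) and 0 in each Sf3b1 K700E/+ library, a level at least 502-fold above the floor. Saysd1, a small membrane protein, had 211, 244 and 181 reads (5.24 ± 0.753 CPM). The zinc finger genes Zfp870 and Zfp808 had 125, 146 and 146 reads, and 109, 130 and 128. In these 4 genes replicate 1 was within 0.869 to 1.02 times the mean of replicates 2 and 3.

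Other genes were low in replicate 1 of Sf3b1 +/+ cells. Olr1, a scavenger receptor for oxidized lipoprotein, had 27, 99 and 82 reads. Serpinb9g, of a serine protease inhibitor family, had 8, 56 and 65. Tdo2, which opens the ring of tryptophan, had 22, 57 and 46, and Arhgef38 had 11, 34 and 47. Ikzf3, a lymphoid transcription factor, had 7, 28 and 32. Replicate 1 was under 0.5 times the mean of the others in 10 of the 21 genes, against 2.4% of all genes with at least 5 reads in every Sf3b1 +/+ library, and in 1 of the 63 genes silent in Sf3b1 +/+ cells, against 1.34% in that genotype. Sec16b, a protein of endoplasmic reticulum exit sites, was between them with 36, 47 and 53 reads. Of the remaining 2 among the 12 highest, G430049J08Rik was low in replicate 1 (10, 22 and 20 reads) and A930003A15Rik was not (14, 11 and 17).

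The summed level of 22 granulocyte and macrophage markers, of which Cd14 (10, 19 and 9 reads) is itself a silent gene, moved in the same way. It was 142, 298 and 304 CPM in the Sf3b1 +/+ libraries and 62.2 to 82.1 CPM in the Sf3b1 K700E/+ libraries. Most of this sum came from Spi1 (3436, 5689 and 5333 reads in Sf3b1 +/+ against 2985, 3320 and 3231) and Cebpe (1702, 5133 and 5546 against 46, 229 and 224). Lyz2, encoding lysozyme, had 166, 419 and 450 reads against 0, 1 and 0, while the defining markers Elane, Ctsg, Ly6g, S100a8, Camp and Cebpa had none in any library. Mast cell, basophil and eosinophil markers (5 of 8 tested lower, 1 higher) summed to 93.6 to 165 CPM against 31.4 to 58.9 CPM. Of the lower ones Ear6 was tested only through the Sf3b1 +/+ libraries, so its direction was fixed. Of 6 tested megakaryocyte markers 1 was lower (32.7 to 56.6 CPM in sum against 62.6 to 109 CPM), and lymphoid and stromal or endothelial markers stayed under 0.2 CPM in sum, with none tested. The part of these programs in the silent genes was not tested, and fewer cells of a kind and less RNA per cell cannot be told apart in bulk RNA. Without replicate 1 of Sf3b1 +/+ cells, 42 genes met the limits of silence in Sf3b1 K700E/+ cells in place of 21, and without replicates 1, 2 and 3 of Sf3b1 K700E/+ cells 32, 35 and 35 did.

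**Figure D2:**
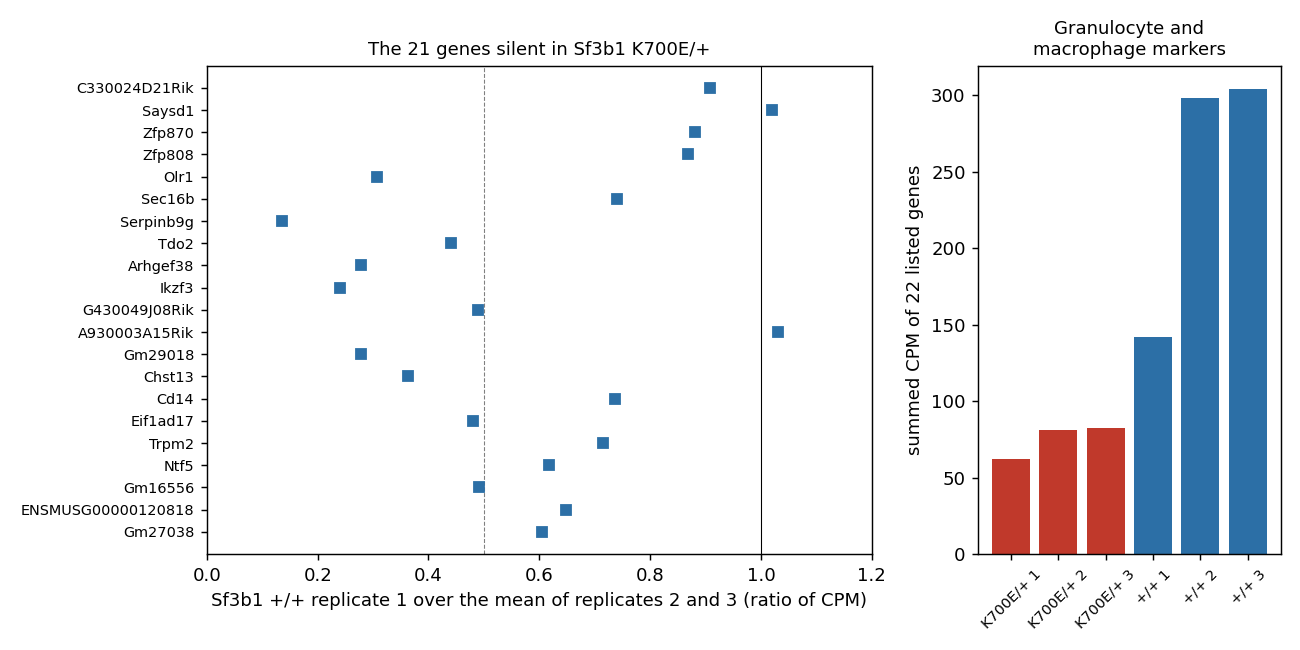
Left, the ratio of CPM in replicate 1 of Sf3b1 +/+ cells to the mean of replicates 2 and 3 for each of the 21 genes silent in Sf3b1 K700E/+ cells, in order of level, with lines at 1 and 0.5. Right, bars give the summed CPM of 22 granulocyte and macrophage markers in each library, of which Spi1 and Cebpe make up most. Ratios run from 0.136 for Serpinb9g to 1.03 for A930003A15Rik, and the 4 highest genes lie near 1.

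Most of the silent genes share little sequence with other genes. Of 68 genes outside the chromosome 14 array, 53 shared no 75-base stretch, the read length, with a transcript of any other gene in GENCODE M21. The 53 included Tarbp1, Trim68, Cc2d1a, Mccc2, Gpd1l, Mast4 and Saysd1. In the 13 silent genes of the array, 1.8% to 88.9% of the stretches occurred in another gene (median 34.7%). Copies also existed for Eif1ad17 (65.7%), Gm14393 (47.1%), Serpinb9g (44.9%), G430049J08Rik (25.7%), Acsf2 (25.2%), Zfp975 (17.1%) and Zfp808 (16.4%), for which silence of the gene and the assignment of reads among copies cannot be told apart.

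The array is the one place where silent genes lay close together in number. Of the 61 genes silent in Sf3b1 +/+ cells that are in GENCODE M21, 24.6% were on chromosome 14, against 3.47% of all genes with at least 5 reads in every Sf3b1 K700E/+ library, and 13 lay in 1 stretch of it. This stretch, from 1700024B05Rik to Gm17184, holds 142 counted genes, mostly numbered gene models of unknown role, of which 100 had no read in any library. Of the other 42 genes, 23 beside the 13 had reads in Sf3b1 K700E/+ cells alone, and 6 had reads in both genotypes. No gene there had reads in Sf3b1 +/+ cells alone. The highest silent genes of the stretch were Gm5930 with 374, 313 and 278 reads, 1700024B05Rik with 294, 195 and 175, and Gm32857 with 196, 156 and 155. Gm21154 (144, 139 and 98), Gm8113 (110, 137 and 113) and 4930503E14Rik (79, 78 and 56) followed.

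Of the 6 genes of the stretch with reads in both genotypes 5 were tested, and 4 were higher in Sf3b1 K700E/+ cells, beside 21.3% of all 12547 tested genes. Gm9732, Gm6526 and Gm7324 passed the filter on low counts only through the Sf3b1 K700E/+ libraries, so their direction was fixed by being tested. Of the other tested genes Cdv3-ps was higher and Gm6532 did not pass. Gm9732 had 1628, 1505 and 1309 reads against 2, 0 and 0, a log2 fold change of 10.7 ± 0.28 (adjusted p = 1.96e-07), and Gm6526 had 147, 102 and 98 against 0, 1 and 0. Gm7324 (26, 29 and 26 against 15, 7 and 9) and the pseudogene Cdv3-ps (44, 51 and 44 against 31, 22 and 27) rose by less, with log2 fold changes of 1.19 and 0.61. Gm6532 did not pass the test at 11, 16 and 19 reads against 8, 7 and 14 (adjusted p = 0.344). Cdv3-ps, Gm7324 and Gm6532, with reads in every library of both clones, lay between genes with no read in one. Shared sequence was not computed for these genes, so whether their reads came from copies elsewhere was not tested.

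**Figure D3:**
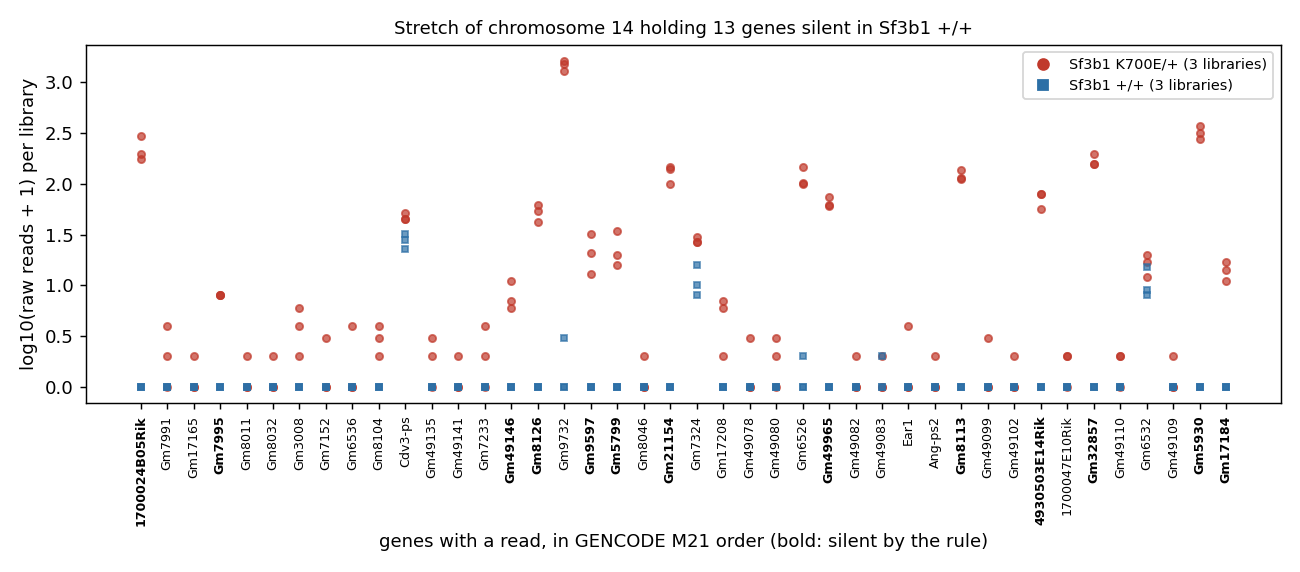
Raw reads per library on a log10(reads + 1) axis for the 42 genes with a read in the chromosome 14 stretch, in GENCODE M21 order, with red circles for the 3 Sf3b1 K700E/+ libraries and blue squares for the 3 Sf3b1 +/+ libraries. Names in bold are the 13 genes silent by the rule. Cdv3-ps, Gm7324 and Gm6532 have reads in every library of both genotypes.

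Elsewhere silent genes were mostly alone. Counting genes with at least 5 reads in some library, 3 pairs of silent genes outside the array were direct neighbours. Arhgap5 and Akap6, an anchoring protein of protein kinase A, follow each other on chromosome 12. Gm45527 lies within the span of Trim68 on the same strand, so their reads may not be separable. Cc2d1a and Brme1, a factor of meiotic recombination with 15, 12 and 17 reads, lie on opposite strands with their 5′ ends within 1000 bases, so that the promoter shown above is near both starts. In 6 other silent genes a gene started within 1000 bases on the other strand, and none of those genes had enough reads to be tested.

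Genes next to the silent genes were picked by position, with silent genes skipped. Only genes past the filter on low counts could be tested, so their values entered the choice. Some passed it only through the genotype where they are high, such as Klhl6, Gm3604, Gm9732, Gm6526, Gm7324, Eif1ad11 and Gm26532. So did Gm14399, ENSMUSG00000115801, 1700101I11Rik, Gm9888 and Rpl21-ps10. Their direction was fixed by being tested, and they are part of the shares of DEGs below. In RefSeq order, where the nearest annotated gene is often an unread model, 14 of the 107 neighbours of genes silent in Sf3b1 +/+ cells were tested, and 3 were higher and 1 was lower. For the other direction 5 of 32 were tested, and 3 were lower and none higher. With the replicate number as a block, and also without replicate 1 of Sf3b1 +/+ cells, these counts of lower neighbours were 2 and 5. Taking instead the nearest tested gene on each side in GENCODE order, an alternative chosen after seeing the data, gave 97 neighbours of 61 genes silent in Sf3b1 +/+ cells. Their median log2 fold change was 0.04, 23 were higher, 20 lower and 54 did not pass, so 44.3% passed, beside 44.4% of all tested genes. DEGs (adjusted p under 0.05 and an absolute log2 fold change over 1) were 16.5% of them, beside 10.3% of all (4.07% higher and 6.24% lower), and 13.3% without the array. With the 3 nearest tested genes on each side the share of DEGs was 9.25%, so an excess over all genes did not hold there.

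The flanks of the highest silent genes show this at single loci. Coa6, a gene of cytochrome oxidase assembly next to Tarbp1, had 851, 741 and 690 reads in Sf3b1 K700E/+ and 660, 671 and 601 in Sf3b1 +/+ cells (log2 fold change 0.05 ± 0.09, adjusted p = 0.637), and Irf2bp2 on the other side did not pass either (-0.26 ± 0.15, adjusted p = 0.199, or 0.00263 with the replicate block). Beside Mccc2, Mrps27 of the mitochondrial ribosome was at 0.13 ± 0.08 (adjusted p = 0.235), while Bdp1, a factor for RNA polymerase III, was higher by 0.48 ± 0.06. Both flanks of Mast4, Pik3r1 and Srek1, had log2 fold changes of 0.14 ± 0.07 and -0.04 ± 0.08 and did not pass. Nubpl, before Arhgap5, was at 0.12 ± 0.09 (adjusted p = 0.286), and Sptssa, after Akap6, fell by 0.29. Dcaf15, beside Cc2d1a, was at -0.16 ± 0.06 (adjusted p = 0.0732, or 0.0177 with the block). Around C330024D21Rik the zinc transporter Slc30a9 and the lipid flippase Atp8a1 were at 0.18 ± 0.07 (adjusted p = 0.0614, or 0.00517 with the block) and 0.04 ± 0.11 (adjusted p = 0.775). Saysd1 differed, as both of its nearest tested neighbours were lower in Sf3b1 K700E/+ cells, Gng2 at -0.71 ± 0.08 (adjusted p = 0.000134) and Nudt13 at -0.35 ± 0.11 (adjusted p = 0.0287). Thus in most of these loci well-read genes of both clones were the nearest tested neighbours of genes with no read in one. Genes under the filter on low counts were skipped, so this follows largely from the choice of neighbours. It does not describe the unread genes that lie between.

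Some neighbours changed in the direction of the silent gene. Next to Fgf3, the chloride channel gene Ano1 had 1140, 1109 and 1021 reads against 48, 37 and 36 (log2 fold change 4.57 ± 0.14, adjusted p = 2.2e-07), and Fgf15, the second tested gene on the other side, was higher by 1.52 ± 0.17. Zscan26 beside Pgbd1 and the protease gene Ctsl beside Cdk20 were higher by 1.57 and 1.67, and Gm14399 beside Gm14393 by 2.07. ENSMUSG00000115801, past the end of the array, was higher by 1.95. Gm14399 and ENSMUSG00000115801 passed the filter on low counts only through the Sf3b1 K700E/+ libraries, so their direction was fixed. Others were lower while the silent gene was higher. These were Sptbn1 beside Eml6 (-1.36), Anxa5 beside Zfp267 (-1.54), Cstf2t beside Asah2 (-1.23), Tec beside its paralog Txk (-2.07), Gm26532 after Cc2d1a and Brme1 (-3.44), Gm9888 beside Gpd1l (-1.69) and Rpl21-ps10 beside Ankrd50 (-1.53). Of these Gm26532, Gm9888 and Rpl21-ps10 passed the filter on low counts only through the Sf3b1 +/+ libraries, so their direction was fixed. The adult β-globin gene Hbb-bt, the nearest tested gene past Trim68, fell by 1.66 (1147, 1931 and 2614 reads against 3107, 6213 and 6887, adjusted p = 0.00501).

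Around the 20 genes silent in Sf3b1 K700E/+ cells that are in GENCODE M21, 16 of 40 nearest tested neighbours were lower, 6 were higher and 18 did not pass, with a median log2 fold change of -0.27, beside 23.1% lower among all tested genes. DEGs were 22.5%, and 20.8% with the 3 nearest tested genes on each side. The small pseudogene Gm27038 lies inside 2700099C18Rik on the opposite strand, and as the strand setting of the counting is unknown their reads may not be separable. The genes nearest to it were lower in Sf3b1 K700E/+ cells. 2700099C18Rik had 263, 232 and 207 reads against 1450, 1349 and 1420 (-2.77 ± 0.09), Gm1976 was at -3.59 ± 0.12, and Mettl4, a DNA and RNA adenine methyltransferase, had 1107, 1094 and 1083 against 4255, 4443 and 4544 (-2.19 ± 0.07, adjusted p = 2.2e-07). Klhl6 beside A930003A15Rik (2, 0 and 0 reads against 36, 56 and 56) fell by 6.13, Apobec1 beside Gm16556 was at -2.11 ± 0.22, and Gm43254 beside Arhgef38 at -1.01 ± 0.17. Eif1ad17 lies in a family cluster in which the 3 nearest tested genes on each side were all lower, from -3.76 for Gm48388 to -4.21 for Eif1ad10. Of these Gm2042, Eif1ad11 and Pramel51, like Klhl6, passed the filter on low counts only through the Sf3b1 +/+ libraries, so their direction was fixed. Gm48388 and Eif1ad10 also reached the level of the filter in every library of Sf3b1 +/+ cells alone. Only Gm2099 reached it in every library of both genotypes, so the shared direction was in part fixed by the filter. The higher DEGs were 1700101I11Rik beside Olr1 (1.06) and Gm3604 beside Zfp808. Both passed the filter on low counts only through the Sf3b1 K700E/+ libraries, so their direction was fixed too.

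**Figure D4:**
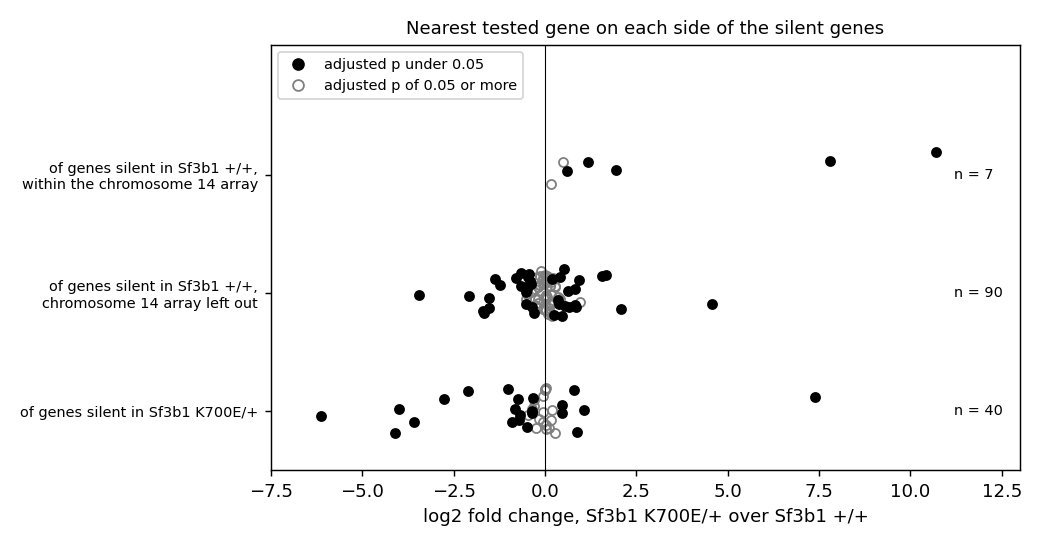
Log2 fold change of the nearest tested gene on each side of the silent genes, as 1 point per neighbour spread vertically for visibility, filled where the adjusted p was under 0.05. The 90 neighbours of genes silent in Sf3b1 +/+ cells outside the array centre on a median of 0.01, the 7 around the array lie at or above 0, and the 40 neighbours of genes silent in Sf3b1 K700E/+ cells have a median of -0.27.

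Zfp808 and Gm3604 had most of their reads in opposite clones. Zfp808 was counted in Sf3b1 +/+ cells alone, while Gm3604, the next tested gene on chromosome 13, had 103, 90 and 66 reads in Sf3b1 K700E/+ and 0, 0 and 1 in Sf3b1 +/+ cells (log2 fold change 7.39 ± 0.49, adjusted p = 6.98e-06). Gm3604 passed the filter on low counts only through the Sf3b1 K700E/+ libraries, so its direction was fixed by being tested. In the splicing event table, which was assembled from reads before any placement on the genome, 2 events were assigned to Zfp808. The exon skipping event (chromosome 13, 62317343 to 62319002 of GRCm39, 61 variable bases) had 77 reads over both paths in Sf3b1 +/+ and 41 in Sf3b1 K700E/+ cells, and the other, marked as an inexact repeat, had 148 and 128. Reads of the Zfp808 sequence were therefore present in both clones although the gene count was 0 in one, and the copy they came from cannot be told apart.

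The other silent genes with events had no event read in the silent genotype. Of 15 events in 9 silent genes, 13 events in 8 genes had no read in the silent genotype, all of them with at least 20 reads in the other. A skipped exon of Trim68 (chromosome 7, 102328306 to 102329383) had 95 reads in Sf3b1 K700E/+ cells, one of Cc2d1a (chromosome 8, 84860130 to 84860645) had 124, and an alternative donor of C330024D21Rik (chromosome 5, 67623731 to 67624175) had 128 in Sf3b1 +/+ cells. The event of Gm49146, marked as an inexact repeat, held 131 reads in Sf3b1 K700E/+ cells where the gene had 5, 10 and 6, so it says little about that gene. The events come from the same libraries as the counts and are no independent sample.

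The promoters of the silent genes differed in CpG content among themselves. RefSeq promoter windows, from 250 bases before to 50 after the start, were found for 45 of the 63 genes silent in Sf3b1 +/+ cells and for 12 of the 21 others. Outside the array 24 of 38 windows (63.2%) had a ratio of observed to expected CpG of at least 0.6, beside 62.7% of genes with at least 5 reads in every Sf3b1 K700E/+ library and a mean under 20 CPM, and 76.2% without the limit on level. Within the array it was 0 of 7, with a median ratio of 0.153. Among genes silent in Sf3b1 K700E/+ cells it was 2 of 12 (16.7%), Saysd1 being one, beside 75.6% of all genes with at least 5 reads in every Sf3b1 +/+ library. That last set has no limit on level. Its median was 23.5 CPM against 0.427 CPM for the 21 silent genes, and a share at a like level was not computed in this direction.

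Short motifs were searched on both strands of the same windows. The motif AGATAA, bound by GATA factors, was in 8 of the 45 windows (17.8%), 4 of them in the array, and in 10.5% outside the array, beside 6.6% of genes with at least 5 reads in every Sf3b1 K700E/+ library, 8.42% of those under 20 CPM and 11.4% of all 27025 windows. The GC box GGGCGG was in 42.2% of the 45, beside 59.1% of read genes under 20 CPM, 65.6% of read genes and 35.9% of all windows. Outside the array it was in 19 of 38, and within it in 0 of 7. For the box CCAAT the shares of the 45, the read genes and all windows were 40.0%, 40.4% and 37.9%, and for the box TATAAA they were 8.89%, 6.51% and 14.2%. In the 12 windows of genes silent in Sf3b1 K700E/+ cells the GATA motif was in 1, the GC box in 3, the CCAAT box in 5 and the TATA box in 3. A match describes the letters only.

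**Figure D5:**
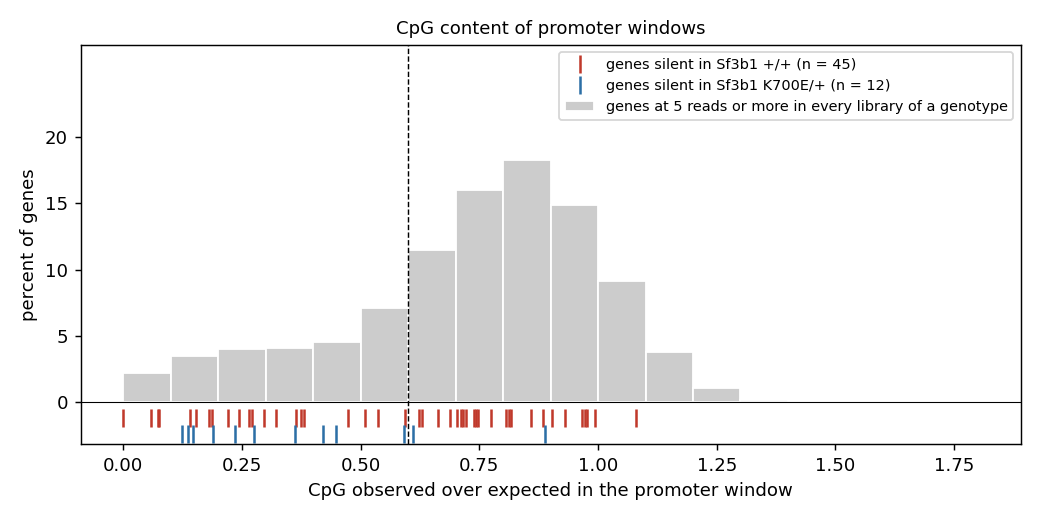
Observed over expected CpG in RefSeq promoter windows. Grey bars give the percent of genes with at least 5 reads in every library of a genotype, ticks under the axis are single silent genes (red, silent in Sf3b1 +/+ cells, n = 45, blue, silent in Sf3b1 K700E/+ cells, n = 12), and the dashed line is at 0.6. The blue ticks lie mostly to the left of the line.

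Paralogs and partners, which share the work of the silent genes, were mostly read in these cells. For 39 silent genes 67 such genes were listed by hand after the silent genes were known, and of 47 tested 11 were higher, 16 lower and 20 did not pass. Thus 57.4% passed, beside 44.4% of all tested genes, and 17.0% were DEGs, beside 10.3%. Mccc1, the biotin-carrying subunit that pairs with Mccc2, had 287, 239 and 221 reads in Sf3b1 K700E/+ and 75, 51 and 52 in Sf3b1 +/+ cells (log2 fold change 1.88 ± 0.18, adjusted p = 5.55e-05), so both subunits were lower in Sf3b1 +/+ cells. The mitochondrial RNA ribose methyltransferase Mrm1 was also higher, by 0.99 ± 0.12. Cc2d1b, the paralog of Cc2d1a, was at -0.26 ± 0.07 and Trim21, the paralog and neighbour of Trim68, at 0.39 ± 0.12, both past the test. Arhgap35, the paralog of Arhgap5, was at 0.28 ± 0.06. Gpd2, the mitochondrial enzyme that reacts with the substrate of Gpd1l, did not pass (0.16 ± 0.11, adjusted p = 0.264, or 0.0208 with the replicate block), and Gpd1 had 1 read in all.

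Of 39 tested paralogs or partners of genes silent in Sf3b1 +/+ cells 14 were lower in Sf3b1 K700E/+ cells and 8 higher. Of all tested genes 23.1% were lower and 21.3% higher. The 4 lower DEGs were Eml5 (-1.45), Rab27a (-1.17), Neil3 (-1.56) and Tec (-2.07), and 6.24% of all tested genes were lower DEGs. Among the genes silent in Sf3b1 K700E/+ cells, the Ikaros family gene Ikzf1 did not pass (0.04 ± 0.06, adjusted p = 0.616) and Ikzf2 fell by 2.38 (268, 448 and 497 reads against 1125, 2076 and 2451). The sulfotransferase gene Chst12 fell by 3.52 and Chst11 was higher by 0.38. Serpinb9 was higher by 2.22 (99, 83 and 89 reads against 21, 13 and 17) where its relative Serpinb9g was silent.

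The pathways of the silent genes were followed in 16 lists, of which several were written around genes whose values were already known. Of 216 tested genes that are not silent genes themselves, 25.0% were higher and 24.1% lower in Sf3b1 K700E/+ cells, beside 21.3% and 23.1% of all, and 10.6% were DEGs. These lists hold genes that passed the filter on low counts only through the genotype where they are high, so their direction was fixed. Among them were Acsf3, Dock2, Camk1d, Tspan6, Alox5 and Ppm1k through Sf3b1 K700E/+ and Chchd6, Cd53 and Cd82 through Sf3b1 +/+. Leucine breakdown had 7 of 11 tested genes higher and 1 lower, a median of 0.45. Beside Mccc1, the phosphatase gene Ppm1k (54, 36 and 40 reads against 7, 4 and 2) was higher by 3.1 and Bckdhb of the branched-chain dehydrogenase by 1.2, and Bcat2, the transaminase of the first step, by 0.55. Ppm1k passed the filter on low counts only through the Sf3b1 K700E/+ libraries, so its direction was fixed. Of the RNA methyltransferases 8 of 25 were higher, including fibrillarin (Fbl, 0.75), and 4 lower, with Trdmt1 at -1.44.

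Gene silencing machinery had 4 of 37 tested genes higher and 7 lower. Setdb1, which methylates lysine 9 of histone H3, had 13192, 11941 and 11702 reads in Sf3b1 K700E/+ and 31504, 37101 and 38322 in Sf3b1 +/+ cells (log2 fold change -1.72 ± 0.07, adjusted p = 7.89e-07). Its co-repressor Trim28 was higher by 0.63, Ehmt2, another histone H3 methyltransferase, was at -0.57 ± 0.05, and Cbx5, encoding the heterochromatin protein HP1α, was higher by 0.49. Tet2, which oxidizes methylated cytosine, was at -0.97 ± 0.18. Dnmt3a and Dnmt3l had no read in any library. Any link of these levels to the silent genes was not tested.

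The other lists described moved in both directions. TRIM ligases had 8 higher and 5 lower of 23, tetraspanins 6 and 7 of 15, tubulins 3 and 4 of 14, Lgd and ESCRT-III proteins 3 and 5 of 13, base excision repair glycosylases 4 and 2 of 13, and biotin enzymes with mitochondrial fatty acid synthesis 3 and 3 of 14. DOCK exchange factors had 2 and 4 of 9, calcium/calmodulin kinases 2 and 3 of 7, and leukotriene and prostaglandin synthesis 1 and 3 of 7. The MICOS complex of 9 tested genes, the glycerol phosphate and malate-aspartate shuttles of 8 and the HIT proteins of 6 had 1 gene in each direction. In the shuttles this was Got1 (0.98 ± 0.07) and Mdh1 (-0.36 ± 0.05), and in MICOS the lower gene was Chchd6 with 0, 0 and 1 reads against 180, 185 and 173. The direction of Chchd6, and of Alox5 named next, was fixed by being tested. Alox5, the first enzyme of leukotriene synthesis, had 345, 244 and 182 reads against 1, 1 and 0, while its partner Alox5ap was at -2.21 ± 0.2 and Alox15, another lipoxygenase, at -5.96 ± 0.67.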

How the data were processed

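Poly(A) RNA of 3 Sf3b1 K700E/+ and 3 Sf3b1 +/+ libraries (stranded kit, paired-end) taken after 24 h of estradiol was used. The authors aligned reads with STAR 2.7.9 on GRCm39 and deposited raw counts per gene. The counting tool and strand setting are not given in the sources used here. They also deposited packed read numbers of splicing events in a text format of their own (2 read files per library), which were summed per path and genotype for events with at least 10 reads. DESeq2 1.30.1 is the version the submitters' processing notes name. The 6 samples without estradiol were left aside and are not analysed here.

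Differential expression was fitted with edgeR 4.0.16 under R 4.3.3 (filterByExpr by genotype, TMM, quasi-likelihood F test, Benjamini-Hochberg adjustment over 12547 genes), after a test on simulated data. All log2 fold changes are Sf3b1 K700E/+ over Sf3b1 +/+, with their SE, and "passed" means an adjusted p under 0.05. CPM were scaled by TMM. The filter kept 41 of the 63 genes silent in Sf3b1 +/+ cells and 10 of the 21 others. A bound on a fold used a floor of 3 reads over the 3 silent libraries and covers counting error only. Deviations from the genotype means correlated between same-numbered libraries (0.627, 0.484 and 0.48 over 8771 genes), so the shared numbers pair the libraries. The fit reported has no replicate block, as in the study, and blocked values are given where a call of a named gene changed or a count differed by over 1.5 times. The highest correlation across numbers was 0.249.

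Gene order, strand and type came from GENCODE M21 (81 of 84 genes matched) and RefSeq (70 matched), both on GRCm38. Coordinates of events are in GRCm39, those of promoters in GRCm38.p6. The silent genes, lists and tests were chosen with earlier results of these data known. Named genes are the 20 and 12 highest in each direction, genes of lists, direct neighbours, genes at the limits, neighbouring DEGs, paralogs or partners, and up to 4 genes of a list with the lowest adjusted p. Others were named after their values were seen. Alternatives changed the limits, filter, scaling, test (DESeq2 1.42.0), block, neighbours and libraries. One of the 16 gene lists is not reported here by itself.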

Additional observations from a re-analysis of the deposited data

How the results depend on the processing

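The number of genes silent in Sf3b1 +/+ cells (63) stayed within 1.5 times under every alternative run (43 to 87). That of genes silent in Sf3b1 K700E/+ cells (21) was 46 with at least 3 reads, 10 with at least 10 and 49 with at most 1 read allowed, and 24 to 42 without single replicates, with 32, 35 and 35 without replicates 1, 2 and 3 of Sf3b1 K700E/+ and 42 without replicate 1 of Sf3b1 +/+. With the replicate block the tested RefSeq neighbours that were lower numbered 2 (1 without it) and 5 (3 without it), and it moved no other count by over 1.5 times. Of the named genes it changed the call of Gpd2, Slc30a9, Dcaf15 and Irf2bp2, which then passed. Without single replicates these were 1 to 2 and 3 to 5 (2 and 5 without replicate 1 of Sf3b1 +/+, 2 for the first also without replicate 3 of Sf3b1 K700E/+), and DEGs among neighbours of genes silent in Sf3b1 +/+ cells were 0 to 1 higher and 1 to 2 lower. Both no filter on low counts and DESeq2 gave 2 lower DEGs for the other direction (1 in the report). The nearest tested neighbours held 1 higher DEG by DESeq2 in place of 2, and 1 to 2 without single replicates. With the 3 nearest tested genes on each side, chosen after seeing the data, DEGs were 9.25% of the neighbours of genes silent in Sf3b1 +/+ cells (16.5% with 1). With 3 genes on each side, 15.6% of RefSeq neighbours of genes silent in Sf3b1 K700E/+ cells were higher and 31.2% lower (none and 3 of 5 with 1). At a CpG ratio of 0.75, 28.9% and 8.33% of windows passed (53.3% and 16.7% at 0.6). The causes were not tested. A gene with few reads in one clone cannot be told from a silent one at this depth, and chance zeros are likeliest among genes near 5 reads.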
